A study of Mus musculus with 6 samples.

Results

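The genes examined here are 10 that encode the core of type 2 immune signalling: the cytokines Il4, Il5, Il13 and Il9, the alarmins Il33, Tslp and Il25, and the receptor chains Il1rl1, Il4ra and Il13ra2. They were taken by name, not by their values, as every probe whose RefSeq accession belongs to a gene of that list, which gave 13 probes of 10 genes among 19745 genes with values on all arrays. Their RNA was measured in homogenised whole mouse lung on 6 single-colour Agilent arrays, 1 for each of 6 groups. Wild type C57BL/6 mice (WT), mice of that strain labelled FcRg KO (FcRg-/-) and mice of that strain labelled FceRIa KO (FceRIa-/-, also spelled FceRla, FcRla and FceRa in the labels) received PBS or histamine-releasing factor of the mouse (HRF, His-tagged by its label) by the intranasal route. HRF is encoded by Tpt1 and is found outside cells in allergic reactions, and FcRg and FceRIa are chains of the receptor that binds IgE. The labels give no age, sex, dose or time and do not tell how many mice stand behind each array. Only the contrast of HRF with PBS within a label, and of labels within a challenge, can be drawn.

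IL-33, TSLP and IL-25 are released by barrier cells and act on group 2 innate lymphoid cells (ILC2), T helper 2 (Th2) cells, mast cells and basophils, which answer with IL-4, IL-5, IL-9 and IL-13. IL-33 signals through the Il1rl1 product ST2 together with Il1rap, and IL-4 and IL-13 share the Il4ra chain and act through STAT6, while the Il13ra2 product binds IL-13 and is best known as a decoy. In lung, IL-5 supports eosinophils and IL-13 drives mucus production and eosinophil chemokines. In whole lung RNA, fewer cells of a type and less RNA per cell cannot be told apart.

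Levels are given as the log2 ratio of the processed signal to the 75th percentile of the same array, which thus stands at 0, and levels are compared between arrays for 1 probe, never between probes. The 75th percentile of signal lay between 1562.8 and 1621.6 on the WT arrays and the PBS arrays of both knockout labels, and at 1300.5 and 1196.9 on the HRF arrays labelled FcRg KO and FceRIa KO. Of 59305 spots other than controls, 67.5% to 79.6% were well above background on each array, and none was saturated. All 6 arrays lay on 1 slide read in 1 scan, so no slide batch could be compared. Lung markers were present on every array: none of 9 alveolar epithelial genes fell below background, and their summed level lay between 894.3 and 1138 times the 75th percentile. Fat markers varied between arrays, with a summed level of 95.8 for FcRg KO PBS, 30.5 for FcRg KO HRF, 32.6 for FceRIa KO PBS, 74.4 for FceRIa KO HRF and 42.6 to 44.7 in WT, and their part in the results was not tested. Heart markers likewise summed to 400.0 for FcRg KO PBS and 197.0 for FcRg KO HRF, against 211.7 to 289.8 on the other arrays. Of 10 thymus and lymph node markers, 4 were at least 2-fold lower under the FcRg KO label than in WT with PBS, where 3.04% of all genes were, and 4 with HRF, where 3.02% were. The part of these tissues was not tested either. Neither knockout label went with a lower signal for the gene it names. Fcer1g, which encodes FcRg, stood at 4.14 and 4.32 on the arrays labelled FcRg KO against 3.93 and 4.61 in WT, and Fcer1a, which encodes FceRIa, at -0.90 and -1.16 on the arrays labelled FceRIa KO against -4.48 and -4.19 in WT. A probe outside the deleted stretch would check nothing, and where these lie was not tested, so the groups are named by their labels throughout.

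Il4, Il13 and Il5 lie together on mouse chromosome 11, in the order Il4, Il13, Rad50, Il5, and in Th2 cells and ILC2 they depend on the transcription factor GATA3, as does Il1rl1. Their start regions are shown because these genes carry the results that follow. Each window of 300 bases ends 50 bases after the annotated start and is written 5′ to 3′ on the strand of the gene, taken from RefSeq on GRCm38.p6. Capitals mark matches to the GATA words (GATAA or GATAG, with A or T before it) on either strand, so that a match on the opposite strand reads as its reverse complement.
Il4 (chr11:53618616-53618915, minus strand): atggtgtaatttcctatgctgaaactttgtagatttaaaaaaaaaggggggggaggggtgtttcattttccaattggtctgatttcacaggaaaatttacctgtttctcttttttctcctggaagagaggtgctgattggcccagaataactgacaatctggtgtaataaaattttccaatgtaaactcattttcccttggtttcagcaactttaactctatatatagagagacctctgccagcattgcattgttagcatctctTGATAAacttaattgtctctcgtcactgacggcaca
Il13 (chr11:53634653-53634952, minus strand): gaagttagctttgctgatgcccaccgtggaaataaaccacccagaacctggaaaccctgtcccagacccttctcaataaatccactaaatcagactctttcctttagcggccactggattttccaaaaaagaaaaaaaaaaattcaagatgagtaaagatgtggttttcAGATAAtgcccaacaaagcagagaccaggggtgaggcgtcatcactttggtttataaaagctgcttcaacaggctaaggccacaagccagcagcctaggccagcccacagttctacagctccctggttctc
Il5 (chr11:53720544-53720843, plus strand): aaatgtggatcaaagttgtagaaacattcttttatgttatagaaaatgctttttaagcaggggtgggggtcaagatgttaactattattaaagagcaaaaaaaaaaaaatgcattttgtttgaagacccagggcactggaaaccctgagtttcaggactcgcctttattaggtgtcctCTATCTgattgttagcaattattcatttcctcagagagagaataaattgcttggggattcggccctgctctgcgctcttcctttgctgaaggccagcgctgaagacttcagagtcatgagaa
Il1rl1 window 1 (chr1:40429320-40429619, plus strand): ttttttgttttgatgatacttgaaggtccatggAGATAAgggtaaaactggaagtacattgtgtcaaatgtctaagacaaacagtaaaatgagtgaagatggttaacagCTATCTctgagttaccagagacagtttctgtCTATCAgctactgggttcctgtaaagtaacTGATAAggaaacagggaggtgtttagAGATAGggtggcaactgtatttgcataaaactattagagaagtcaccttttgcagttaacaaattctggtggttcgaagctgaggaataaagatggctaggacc
Il1rl1 window 2 (chr1:40439379-40439678, plus strand): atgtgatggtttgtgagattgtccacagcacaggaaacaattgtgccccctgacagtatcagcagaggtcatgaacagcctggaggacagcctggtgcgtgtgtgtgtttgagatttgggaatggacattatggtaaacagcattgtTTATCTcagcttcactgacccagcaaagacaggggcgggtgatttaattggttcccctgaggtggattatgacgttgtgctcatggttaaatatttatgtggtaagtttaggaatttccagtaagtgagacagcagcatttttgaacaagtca

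Il4 held 1 GATA word at bases 15 to 20 after its start, Il13 held 1 at -81 to -76, and Il5 held 1 on the opposite strand at -72 to -67. The first start of Il1rl1 held 5 GATA words between -217 and -49, and its second start held 1 at -103 to -98. Of all 32851 windows of this length in the table, 29.8% held at least 1 GATA word. Il4 also held 1 match to the STAT6 spacing (TTC, any 4 bases, GAA) at -167 to -158, which 6.95% of all windows held, and 4 copies of the NFAT core GGAAAA, which 23.4% held. One of those copies overlaps the STAT6 match. Il13 held 1 NFAT core, and Il5 and both Il1rl1 windows held neither that core nor the STAT6 spacing. These matches describe letters in the windows and say nothing of binding.

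On the WT HRF array, the RNA levels of Il33, Il4, Il5 and Il13 were at least 2-fold above those on the WT PBS array, with 1 array each. Of the 3 alarmins, only Il33 was at least 2-fold higher on the WT HRF array, at 2.92-fold, while Tslp and Il25 differed by less than 1.1-fold there. Il33, which encodes a nuclear cytokine of epithelial and stromal cells, stood at 3.07 on the WT PBS array and 4.61 on the WT HRF array. It stood at 3.26 and 3.44 on the PBS and HRF arrays labelled FcRg KO, and at 2.79 and 3.31 on those labelled FceRIa KO. The WT HRF array lay above the other 5, which spanned 2.79 to 3.44. The log2 ratio of HRF to PBS was 1.54 in WT, 0.18 under the FcRg KO label and 0.53 under the FceRIa KO label, each with an error of 0.20 from the scanner software, which covers the reading of spots and not the spread between mice.

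Tslp, an epithelial cytokine that acts on dendritic cells and ILC2, was at -1.04 and -0.91 in WT, -1.05 and -1.10 under the FcRg KO label and -1.13 and -1.20 under the FceRIa KO label, for PBS and HRF. All 6 values lay within 0.29, and none of the HRF to PBS ratios (0.13, -0.05 and -0.07) exceeded the scanner error of 0.20. Il25, a cytokine of tuft cells, differed more between genotype labels than between challenges, on 1 dim spot per array with signals of 8.38 to 55.5. The share of all spots well above background ran in the same order of labels. For PBS and HRF it was 79.57% and 74.65% in WT, 70.33% and 70.94% under the FcRg KO label and 68.92% and 67.47% under the FceRIa KO label. Its part in the Il25 levels was not tested. Its level was -4.87 and -4.97 in WT and -5.98 and -5.71 under the FcRg KO label, and it was not well above background on either FceRIa KO array (-7.57 and -7.15). With HRF, Il25 stood 1.07-fold lower than with PBS in WT (log2 -0.10, scanner error 0.25) and 1.21-fold higher under the FcRg KO label (0.27, scanner error 0.37). Between PBS arrays, it was 2.16-fold lower under the FcRg KO label than in WT and at least 2.91-fold lower under the FceRIa KO label. Between HRF arrays, the same differences were 1.67-fold and at least 2.50-fold lower. The summed level of 7 tuft cell markers was 9.55 and 13.2 in WT, 13.3 and 14.9 under the FcRg KO label and 11.2 and 11.1 under the FceRIa KO label, with 1 gene not well above background on 1 array. Against WT PBS, their median log2 ratio was 0.27 under the FcRg KO label and 0.14 under the FceRIa KO label, and against WT HRF 0.00 and -0.24. Of the 7, 1 was at least 2-fold lower in FcRg KO PBS (3.04% of all genes) and 1 higher in FcRg KO HRF (0.988%). The part of tuft cells was not tested.

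**Figure D1:**
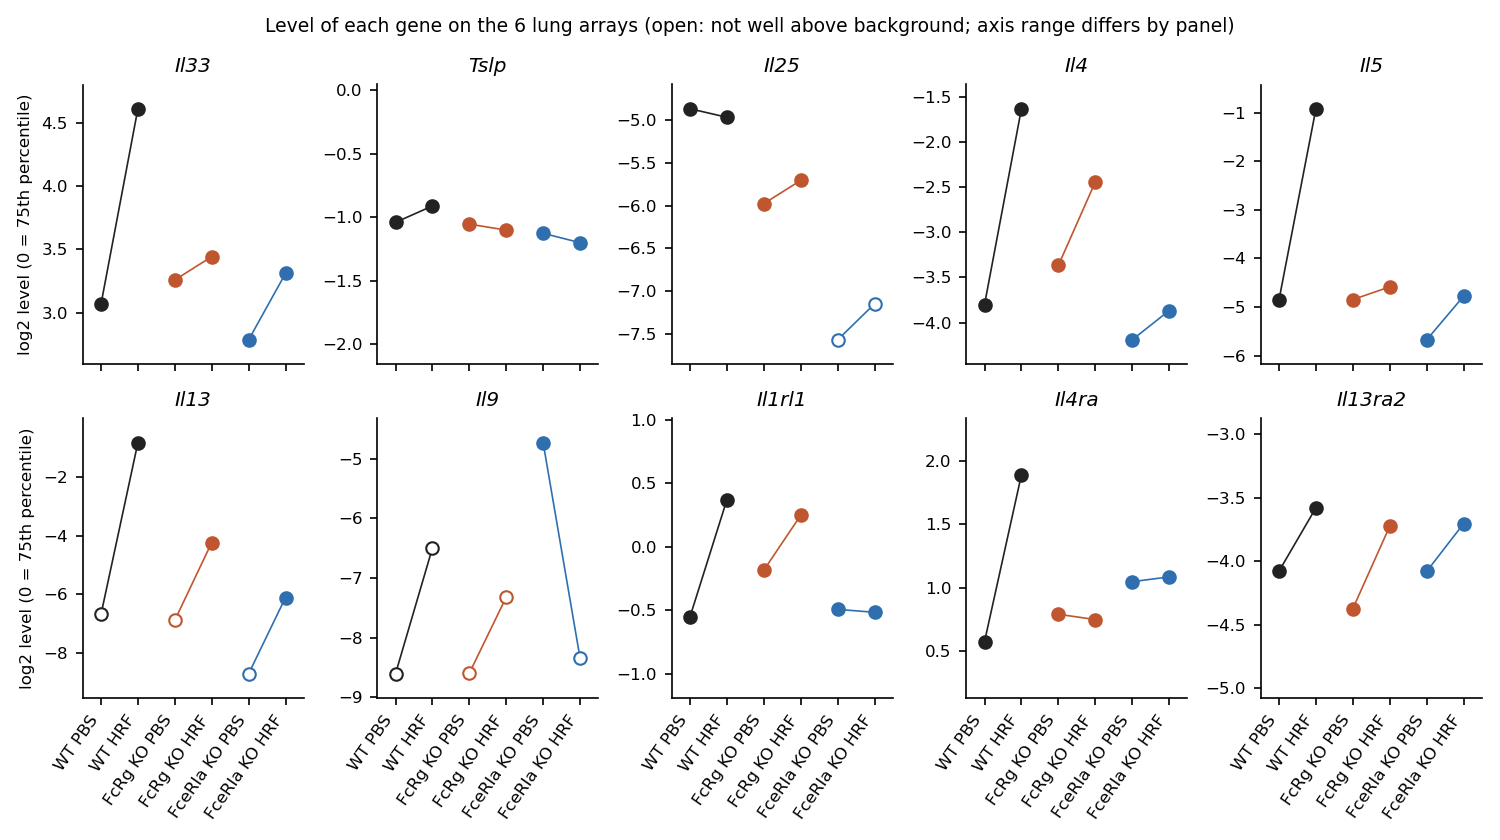
Level of each gene (its brightest probe) on each of the 6 arrays, as log2 relative to the 75th percentile of the array, with the PBS and HRF arrays of a label joined by a line. Filled points are well above background and open points are not. The WT HRF array is the highest of the 6 for Il33, Tslp, Il4, Il5, Il13, Il1rl1, Il4ra and Il13ra2, though Tslp stays within 0.29, and Il9 is above background on the FceRIa KO PBS array alone.

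Among the 9 genes with a WT ratio, Il4, Il5 and Il13 of chromosome 11 had the widest gaps between WT PBS and WT HRF. Cytokines outside the list differed as widely there, as given for Il17a and Il6 further on. Il4 promotes IgE and Th2 responses, and its probe was printed on 10 spots of each array, of which 8 were kept on the WT HRF and FceRIa KO HRF arrays. Its mean level over spots was -3.80 ± 0.12 (SD over 10 spots) for WT PBS and -1.64 ± 0.09 (8 spots) for WT HRF. The arrays labelled FcRg KO gave -3.37 ± 0.22 and -2.45 ± 0.07 (10 spots each) for PBS and HRF, and those labelled FceRIa KO gave -4.19 ± 0.14 (10 spots) and -3.87 ± 0.11 (8 spots). The spots of PBS and HRF did not overlap in WT (-3.99 to -3.61 against -1.76 to -1.47) or under the FcRg KO label (-3.83 to -2.95 against -2.53 to -2.28), whereas under the FceRIa KO label they did (-4.48 to -3.99 against -4.02 to -3.67). Spots of 1 array share its RNA, so this spread is technical. Il4 was thus 4.49-fold higher with HRF in WT, 1.90-fold higher under the FcRg KO label and 1.25-fold higher under the FceRIa KO label.

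**Figure D2:**
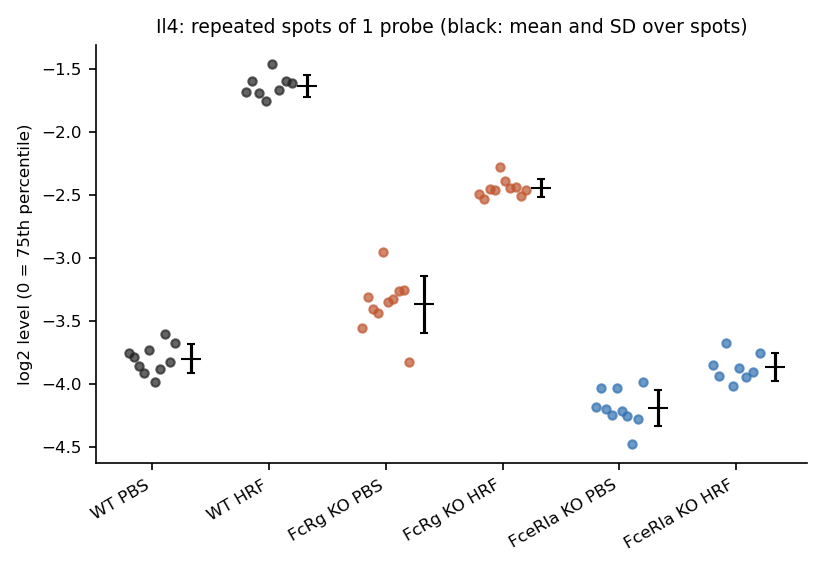
Each point is a spot of the Il4 probe on the array named on the x axis, as log2 level relative to the 75th percentile of that array, and the black mark beside it is the mean with its SD over spots. The 8 spots of WT HRF lie between -1.76 and -1.47, above all spots of the other arrays.

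Il5, the growth and survival factor of eosinophils, was at -4.85 on the WT PBS array and -0.91 on the WT HRF array, 15.3-fold higher. It was at -4.85 and -4.59 on the PBS and HRF arrays labelled FcRg KO, and at -5.68 and -4.78 on those labelled FceRIa KO. The other 5 arrays lay between -5.68 and -4.59, and WT HRF lay 3.67 above the highest of them. The ratio under the FcRg KO label was 0.26, about the size of its scanner error of 0.25, and under the FceRIa KO label 0.90 with a scanner error of 0.32.

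Il13, the cytokine most tied to airway mucus, was not well above background on any PBS array and was well above it on all 3 HRF arrays. Its HRF level was -0.84 in WT, -4.24 under the FcRg KO label and -6.11 under the FceRIa KO label. Against the lowest level that counts as above background on the matching PBS array, or the probe's own level there if higher, it was at least 56.9-fold higher with HRF in WT, at least 4.88-fold higher under the FcRg KO label and at least 1.23-fold higher under the FceRIa KO label. Among HRF arrays, Il13 was 10.5-fold lower than in WT under the FcRg KO label and 38.5-fold lower under the FceRIa KO label. The FceRIa KO HRF value lies close to the lowest level that counts as above background on that array, -6.29. Of the 4 cytokines, Il13 alone was at least 2-fold higher with HRF under a knockout label. In the setting called normexp here, background correction adds an offset to every spot and quantile normalization follows. There the Il13 ratio under the FcRg KO label was 0.95 on the log2 scale and no longer 2-fold. In the deposited value table, where no bound is set, its log2 ratio under the FceRIa KO label was 2.60.

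Il9, a mast cell growth factor made by T cells and ILC2, was well above background on 1 array of 6, FceRIa KO PBS, at -4.73. That value comes from 1 spot with a processed signal of 60.0 and a scanner error of 7.55. The other arrays lay between -8.60 and -6.50 and were not well above background. It was at least 2.95-fold lower on the FceRIa KO HRF array than on the FceRIa KO PBS array, and no ratio can be given in WT or under the FcRg KO label. With normexp correction its FceRIa KO log2 ratio was -0.73, short of 2-fold.

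**Figure D3:**
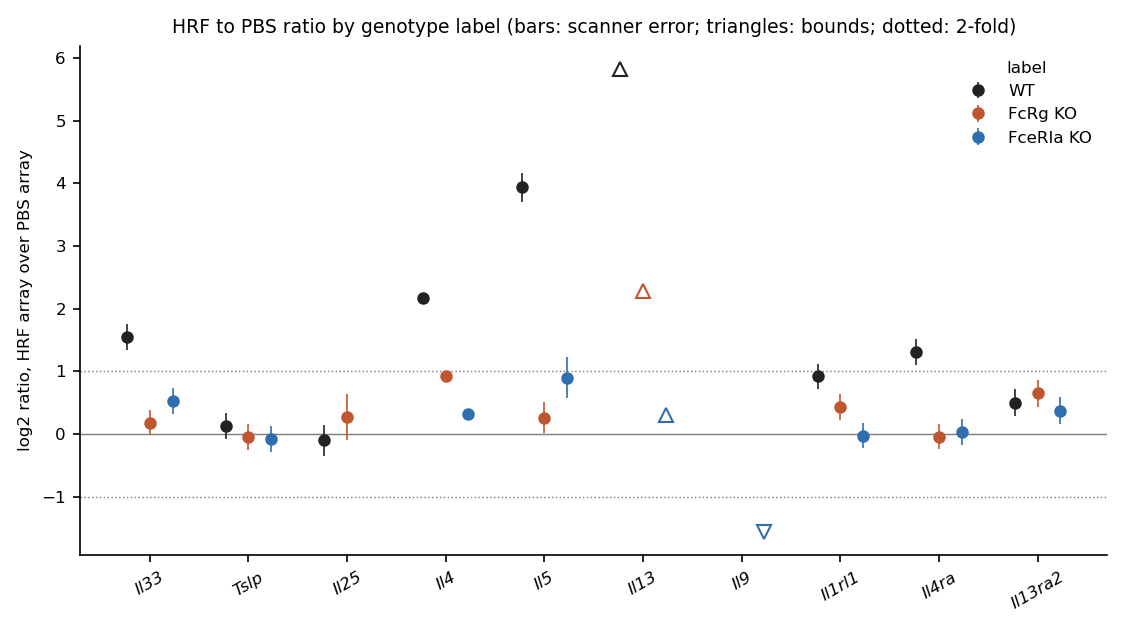
Log2 ratio of the HRF array to the PBS array for each gene and genotype label, with the scanner error as a bar. Open triangles are bounds, the dotted lines mark 2-fold, and a label with no symbol had neither array above background. WT lies above 2-fold for Il33, Il4, Il5, Il13 and Il4ra, and the FcRg KO label for Il13 alone.

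Brightest probes of the 3 receptor genes spanned 0.92 (Il1rl1), 1.31 (Il4ra) and 0.79 (Il13ra2) on the log2 scale over the 6 arrays, against 0.29 for Tslp, 1.83 for Il33 and 2.56 for Il4. Il1rl1, the IL-33 receptor chain found on ILC2, Th2 cells and mast cells, has 3 probes. Probe 1, the brightest, gave -0.55 and 0.37 in WT, -0.18 and 0.25 under the FcRg KO label and -0.49 and -0.52 under the FceRIa KO label, for PBS and HRF. The ratio of HRF to PBS was 1.89-fold in WT and 1.35-fold under the FcRg KO label, both beyond the scanner error of 0.20 on the log2 scale, and -0.02 on that scale under the FceRIa KO label. In WT it reached 2-fold with arrays scaled on their medians (log2 1.14), with the mean of the 3 probes (1.13) and in the deposited value table. Probe 2, which carries the accession of another Il1rl1 transcript, was at least 3.34-fold higher with HRF in WT and 2.25-fold higher under the FcRg KO label, and was not well above background on the FceRIa KO arrays. Probe 3 was 1.64-fold and 1.95-fold higher in those pairs and likewise not well above background on either FceRIa KO array. For all 3 probes, both the WT pair and the FcRg KO pair were higher with HRF, and the FceRIa KO pair showed no measured increase.

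Il4ra, the chain that receptors for IL-4 and IL-13 have in common, has 2 probes, and they disagreed in WT. Probe 1 gave 0.57 and 1.89 in WT, 0.79 and 0.75 under the FcRg KO label and 1.05 and 1.08 under the FceRIa KO label, for PBS and HRF. Its WT HRF array was 2.48-fold above WT PBS, and the other 5 arrays spanned 0.57 to 1.08. Probe 2, of the same transcript accession and dimmer, gave -2.32 and -2.04 in WT, 1.22-fold higher with HRF, so the call at 2-fold rests on probe 1. The mean of both probes gave a WT log2 ratio of 0.80. Il13ra2, which binds IL-13, was higher with HRF in every pair: -4.08 and -3.58 in WT, -4.37 and -3.72 under the FcRg KO label and -4.08 and -3.70 under the FceRIa KO label. These are 1.41-fold, 1.57-fold and 1.30-fold, each beyond its scanner error of 0.21 to 0.22 on the log2 scale.

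**Figure D4:**
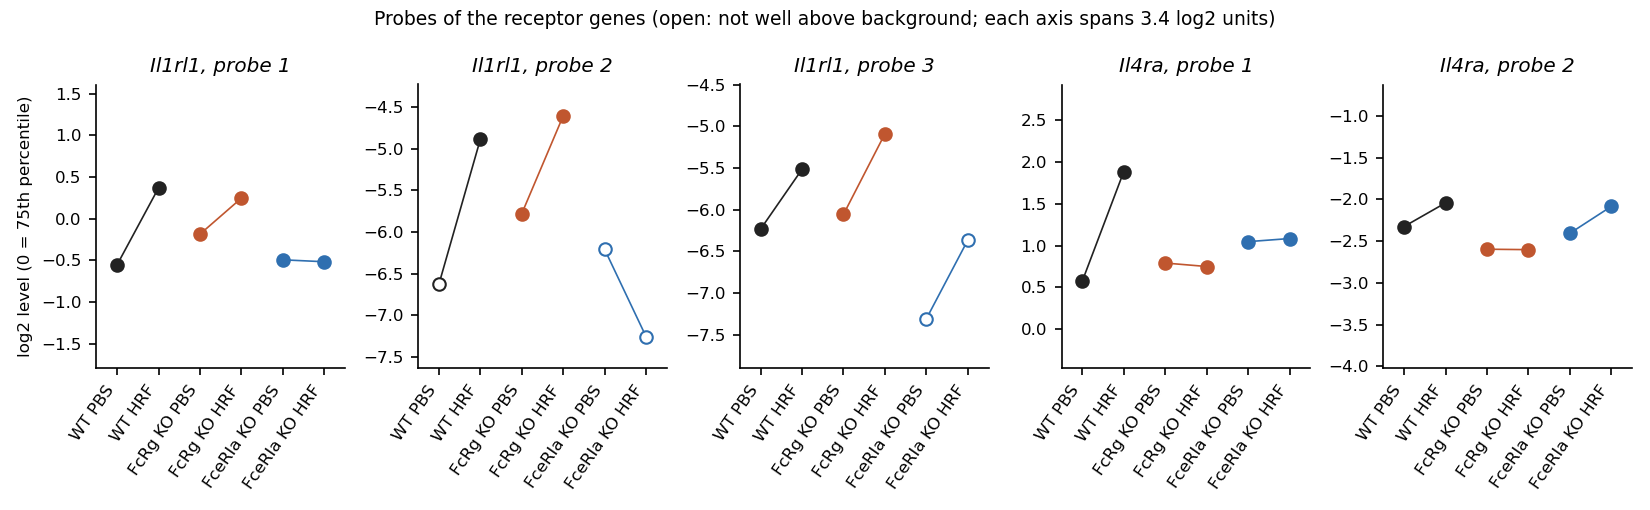
Log2 level, relative to the 75th percentile of each array, of the 3 probes of Il1rl1 and the 2 probes of Il4ra on the 6 arrays. Filled points are well above background, open points are not, and every y axis spans the same range. The WT pair of Il4ra differs by 1.31 with probe 1 and by 0.28 with probe 2.

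Counted over the list, 5 of 9 genes compared (Il4, Il5, Il13, Il33 and Il4ra) were at least 2-fold higher with HRF in WT, where 2.33% of all genes compared were, and none was 2-fold lower, where 1.76% of all genes were. The median log2 ratio of the 9 was 1.31, and that of all genes -0.05. Under the FcRg KO label, 1 of 9 (Il13) was at least 2-fold higher, against 0.766% of all genes, and none lower, against 1.18%, with medians of 0.27 and 0.00. Under the FceRIa KO label, none of 9 was at least 2-fold higher, against 1.49% of all genes, and 1 (Il9) was lower, against 0.46%, with medians of 0.30 and -0.01. The gene without a ratio was Il9 in WT and under the FcRg KO label, and Il25 under the FceRIa KO label. With 1 array a group, none of these ratios has a replicate check.

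The PBS arrays of different labels show how far these genes differ without HRF. Against WT PBS, 1 of 8 genes compared (Il25) was at least 2-fold lower under the FcRg KO label, where 3.04% of all genes were. Under the FceRIa KO label 1 of 9 (Il25) was lower, where 2.89% were, and 1 (Il9, at least 3.83-fold) was higher, where 0.537% were. Against WT HRF, 4 of 9 (Il5, Il13, Il33 and Il4ra) were at least 2-fold lower on the FcRg KO HRF array, where 3.02% of all genes were, and 5 of 9 (Il4, Il5, Il13, Il33 and Il25) on the FceRIa KO HRF array, where 2.37% were. Both of these comparisons use the same WT HRF array.

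Across all 6 arrays, limma fits tested the mean effect of HRF, the difference of each knockout label from WT, and the difference of the HRF response between WT and the knockout labels. The residual of the first fit is the difference of response between labels, with 2 degrees of freedom, and that of the last has 1, so the p-values carry no measure of variation between animals. Dim values entered as measured. None of the 10 genes passed an adjusted p of 0.05 in any of the 4 effects. For the mean effect of HRF, 0.0% of 17601 genes passed, while 8.79% (2 of the 10 members) had an unadjusted p under 0.05. The smallest unadjusted p among the members was that of Il13ra2, with a mean log2 difference of 0.51 (SE 0.09, limma adjusted p = 0.557, higher in 3 of 3 pairs). Il13 followed with 3.69 (SE 0.80, limma adjusted p = 0.557, higher in 3 of 3 pairs). It was not well above background on any PBS array, so the size of this difference is not measured.

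For the FcRg KO label against WT, 0.148% of genes passed (1 higher and 25 lower), none of them a member, with 13.4% of genes (1 of the 10 members) under an unadjusted 0.05. Il25 differed by -0.92 (SE 0.16, limma adjusted p = 0.278, lower in 2 of 2 challenges). For the FceRIa KO label, 0.0% passed, with 12.9% of genes (2 of the 10 members) under an unadjusted 0.05. Il25 came nearest, with -2.44 (SE 0.16, limma adjusted p = 0.087, lower in 2 of 2 challenges). Both FceRIa KO values of Il25 lie below background, so the size of this difference is not measured, and the bounds are -1.54 with PBS and -1.32 with HRF. With normexp correction the Il25 difference was -0.44 (limma adjusted p = 0.35), and -0.25 under the FcRg KO label. Over the alternatives its limma adjusted p under the FceRIa KO label ran from 0.042, with arrays scaled on their medians, to 0.35. For the response of WT minus the mean response under the knockout labels, 0.0% of genes passed, and the lowest adjusted p over all genes was 0.569. The differences in log2 ratio were 3.35 (SE 0.37) for Il5, 3.22 (SE 0.13) for Il13, 1.54 (SE 0.35) for Il4, 1.31 (SE 0.13) for Il4ra and 1.19 (SE 0.23) for Il33, each with a limma adjusted p of 0.569. These 5 of the 10 members had an unadjusted p under 0.05, as did 8.68% of all genes. Il13 was not well above background on any PBS array, so the size of its difference is not measured and its SE rests on dim values. The log2 bounds of its HRF to PBS ratios were 5.83 in WT, 2.29 under the FcRg KO label and 0.30 under the FceRIa KO label. A difference of response between WT and the knockout labels was therefore not established for any member at this number of arrays.

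The chains that pair with these receptors showed smaller differences. Of 11 partner chains, 2 were at least 2-fold higher with HRF in WT, 0 under the FcRg KO label and 1 under the FceRIa KO label, with median log2 ratios of 0.41, 0.17 and 0.12. Over all genes, 2.33%, 0.766% and 1.49% were at least 2-fold higher in the same order. The same shares apply to the list counts below, where a count of 0 lies near them. Csf2rb, the signalling chain that the IL-5 receptor shares with those for IL-3 and GM-CSF, was at 2.33 and 3.52 in WT, 2.34 and 2.51 under the FcRg KO label and 2.59 and 3.16 under the FceRIa KO label. Its mouse relative Csf2rb2, which serves IL-3, was at 1.45 and 2.75, 1.34 and 1.46, and 1.35 and 2.39 in the same order. For both genes the WT and FceRIa KO pairs were higher with HRF, and the FcRg KO pair differed by 0.18 and 0.12. The 2 genes are close relatives, and the array files do not say how far their probes tell them apart. Most chains that bind ligand or complete a receptor stayed within 2-fold in every HRF to PBS pair: Il13ra1 and Il2rg (IL-4 and IL-13), Il5ra, Il1rap (IL-33), Crlf2 and Il7r (TSLP), and Il17rb and Il17ra (IL-25). Il9r did so in WT and under the FcRg KO label, and was at least 1.86-fold lower with HRF under the FceRIa KO label, where the HRF array was not well above background. Il17rb, also an ILC2 marker, had a log2 ratio of 0.45 in WT, 0.86 under the FcRg KO label and -0.03 under the FceRIa KO label. Between labels, 1 of the 11 chains was at least 2-fold lower in FcRg KO PBS than in WT PBS (3.04% of all genes). With HRF, 3 were lower under that label (3.02%), and none was lower under the FceRIa KO label with either challenge. The mean log2 level of Il5ra over both challenges differed from WT by -1.24 under the FcRg KO label (limma adjusted p = 0.183).

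Among 19 signalling and transcription factor genes, Batf alone was at least 2-fold higher in WT and none under either knockout label, with medians of 0.28, 0.00 and 0.06. Batf, an AP-1 factor needed for T helper cell differentiation, was at 0.35 and 1.92 in WT, 0.94 and 0.98 under the FcRg KO label and 0.45 and 1.04 under the FceRIa KO label. Irf4, a transcription factor that acts with Batf, had log2 ratios of 0.88, 0.03 and 0.31, and Junb, a factor that promotes Il4 transcription, 0.91, -0.97 and 0.69. The FcRg KO pair of Junb was thus lower with HRF, by 1.96-fold.

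Of 31 genes known to respond to IL-4 and IL-13, 21 were at least 2-fold higher with HRF in WT, where 2.33% of all genes were, with a median log2 ratio of 1.54. The other 10 did not reach 2-fold, among them the mucin Muc5b (0.001), Cdh26 (0.08) and Postn (-0.12). Under the FcRg KO label 12 of 31 were, with a median of 0.77, and under the FceRIa KO label 6 of 29, with a median of 0.18, and no gene was 2-fold lower in any pair. Ccl24, an eosinophil chemokine, was at -2.01 and 3.07 in WT, -1.81 and 1.96 under the FcRg KO label and -2.52 and -1.30 under the FceRIa KO label, which is 33.9-fold, 13.7-fold and 2.32-fold. Ccl11, the eosinophil chemokine eotaxin, was 11.4-fold higher in WT, 1.82-fold under the FcRg KO label and 2.04-fold under the FceRIa KO label. The epithelial anion exchanger Slc26a4 was 17.2-fold, 3.97-fold and 12.1-fold higher. Its ratio under the FceRIa KO label thus stood nearer to that in WT than its ratio under the FcRg KO label. Ccl24 showed the opposite order. These orders are of ratios and not of levels. Over both challenges, the mean log2 level of Slc26a4 differed from WT by -0.60 under the FcRg KO label and by -1.76 under the FceRIa KO label.

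Of 29 genes of this list measured in both knockout-label pairs, the ratio under the FcRg KO label was at least 2-fold above that under the FceRIa KO label for 9, and at least 2-fold below it for 3 (Ccl17, Ccl22 and Slc26a4). The other 17 lay between. The genes that follow were chosen after their values were seen, from both directions. The T cell chemokine gene Ccl17 was 7.40-fold higher with HRF in WT, 1.80-fold under the FcRg KO label and 5.22-fold under the FceRIa KO label. Its relative Ccl22 was 3.95-fold higher in WT and 3.25-fold under the FceRIa KO label, and 1.06-fold lower under the FcRg KO label. The log2 ratio of Arg1, an enzyme of alternatively activated macrophages, was 2.20 in WT, 3.14 under the FcRg KO label and -0.67 under the FceRIa KO label. Clca1, a goblet cell product, had 2.17, 1.89 and -0.41, and the airway mucin Muc5ac had 1.58, 1.49 and -0.30. Retnlb, a goblet cell protein, was 4.55-fold higher in WT and at least 5.98-fold higher under the FcRg KO label, and was not well above background on the FceRIa KO arrays. With normexp correction, Retnlb under the FcRg KO label (log2 0.94) and Ccl22 under the FceRIa KO label (0.62) fell short of 2-fold. Socs1, a feedback inhibitor of cytokine signalling that interferons induce as well, had 2.22, -0.24 and 0.18. None of these differences between labels was tested gene by gene. In the limma fits, none of the 197 list genes other than the members passed for the mean HRF effect (32 at an unadjusted p under 0.05), for the difference of response between WT and the knockout labels (33 unadjusted) or for the FceRIa KO label against WT (29 unadjusted). For the FcRg KO label against WT, 1 passed (24 unadjusted). It was Fcer2a, which encodes the low-affinity IgE receptor CD23 and stands among the lymph node markers. Fcer2a was at -0.40 and 0.41 in WT, -3.25 and -2.60 under the FcRg KO label and -0.49 and 0.31 under the FceRIa KO label. Its log2 difference was -2.93 (SE 0.09, limma adjusted p = 0.0247, lower in 2 of 2 challenges), and with the deposited value table it did not pass (limma adjusted p = 0.0635).

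**Figure D5:**
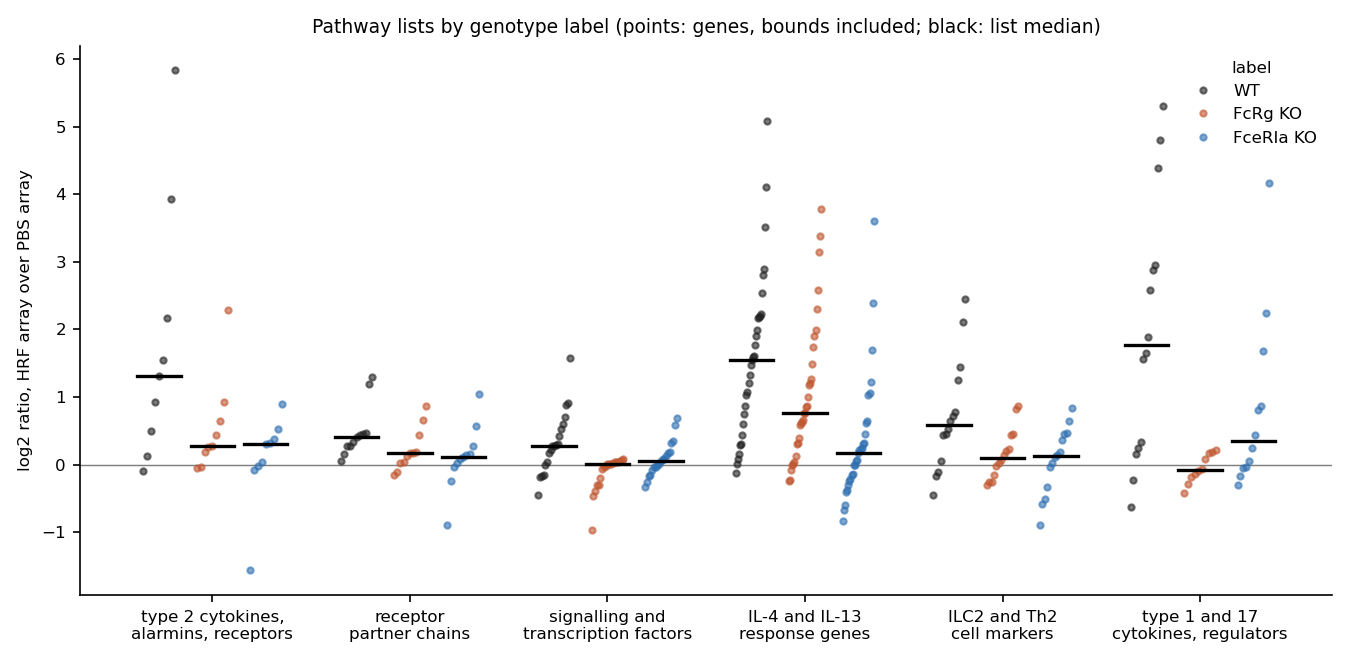
Log2 ratio of the HRF array to the PBS array for the genes of 6 lists (points, bounds included) by genotype label, with the median of each list in black. The median of the IL-4 and IL-13 response genes steps from 1.54 in WT to 0.77 and 0.18, and the list of type 1 and type 17 cytokines has 1.77, -0.08 and 0.34.

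Markers of the cells that make or receive these cytokines were read from the same arrays. Of 14 ILC2 and Th2 cell markers, 4 were at least 2-fold higher with HRF in WT, where 2.33% of all genes were. None was under the FcRg KO or FceRIa KO label, which lies near the shares of all genes there (0.766% and 1.49%). The medians were 0.58, 0.10 and 0.13, with summed levels of 12.8 and 18.5, 16.2 and 14.7, and 11.1 and 12.8 for PBS and HRF. The largest WT ratios were those of Il2ra (5.45-fold), a receptor chain that marks activated lymphocytes, the Th2 homing receptor Ccr4 (4.33-fold) and the costimulator Icos (2.73-fold). Gata3, the factor that defines both cell types, had a log2 ratio of -0.17 in WT. Of 9 T cell markers none was 2-fold different in any HRF to PBS pair, with medians of 0.50, -0.17 and 0.34 and summed levels between 20.8 and 29.8. Against WT PBS, their median was 0.59 on the FcRg KO PBS array (1 of 9 at least 2-fold higher, against 0.691% of all genes). On the FceRIa KO PBS array it was -0.07. The part of cell numbers in the cytokine levels was not tested.

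Of 8 eosinophil markers, 1 was at least 2-fold higher in WT, 2 under the FcRg KO label and none under the FceRIa KO label. The medians were 0.28, 0.53 and 0.12. Summed levels for PBS and HRF were 49.58 and 60.25 in WT, 59.97 and 79.94 under the FcRg KO label, and 69.62 and 42.65 under the FceRIa KO label. Against WT PBS, 2 of 8 were at least 2-fold lower and 1 higher on the FcRg KO PBS array (3.04% and 0.691% of all genes). The eotaxin receptor Ccr3 was 3.43-fold higher in WT, whereas Prg2, a granule protein, was 1.22-fold higher in WT and 2.97-fold higher under the FcRg KO label. Of basophil and mast cell markers, 1 of 9 was at least 2-fold higher in WT. Under the FcRg KO label 1 of 8 was higher and 1 lower. The lower one was Mcpt4, with log2 ratios of -0.70 in WT, -1.23 under the FcRg KO label and 0.40 under the FceRIa KO label. Cpa3 of the same list had -0.60, -0.59 and 0.18. The higher one under the FcRg KO label was Mcpt8, a basophil protease, at -6.15 and -4.03 against -4.18 and -3.93 in WT. Its FcRg KO PBS array was the low one, and its HRF level differed from WT HRF by -0.10. Neutrophil markers had medians of 0.88 in WT, 0.23 under the FcRg KO label and 0.23 under the FceRIa KO label, with 3, 2 and 0 of 8 genes at least 2-fold higher. The PBS arrays of both knockout labels already stood above WT PBS for these genes, with medians of 0.62 under the FcRg KO label (2 of 8 at least 2-fold higher, against 0.691% of all genes) and 0.97 under the FceRIa KO label (4 of 8, against 0.537%). Against WT HRF, the medians of the HRF arrays were -0.09 and 0.48.

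Genes beside the members on the chromosome were compared with them. Around Il4, Il13 and Il5, none of 4 neighbours (Rad50, Kif3a, Septin8 and Irf1) was 2-fold different in any pair, and their median log2 ratios were -0.16, -0.19 and -0.19. Irf1, the next gene after Il5 and an interferon response factor, had the highest WT ratio of the 4, at 0.47. Around Il1rl1, 2 of 6 neighbouring genes were at least 2-fold higher in WT and none under either knockout label. Il1r2, the decoy receptor for IL-1, was at -3.13 and -0.72 in WT, 5.33-fold, and Il1r1, the signalling IL-1 receptor, was 2.39-fold higher. Il18r1, Il18rap, Il1rl2 and Slc9a4 had WT log2 ratios between -0.43 and 0.77.

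The differences in WT were not limited to type 2 genes. Of 14 type 1 and type 17 cytokines and regulators compared, 9 were at least 2-fold higher in WT, 0 of 10 under the FcRg KO label and 3 of 12 under the FceRIa KO label, with medians of 1.77, -0.08 and 0.34. Over all genes the shares were 2.33%, 0.766% and 1.49%, so 0 of 10 lies near the share. Il17a, the defining cytokine of type 17 responses, was 39.4-fold higher in WT, and Il17f was 20.9-fold higher. Il6, an inflammatory cytokine, was at -2.29 and 2.51 in WT, -2.78 and -3.06 under the FcRg KO label and -4.79 and -0.63 under the FceRIa KO label. The FceRIa KO pair of Il6 was 17.9-fold higher with HRF, whereas its Il4 and Il5 pairs were 1.25-fold and 1.87-fold higher. The FceRIa KO PBS array was the lowest of all arrays for Il6, and its level on the FceRIa KO HRF array lay below that on WT HRF. Over the settings tried, the log2 ratio of this Il6 pair ran from 2.93 to 4.21. Of 10 other epithelial cytokines and alarmins compared, 3 were at least 2-fold higher in WT, none under the FcRg KO label and 3 under the FceRIa KO label. Il1b had log2 ratios of 2.75, -0.14 and 1.10, Il1a 1.35, -0.02 and 1.35, the alarmin subunit S100a8 1.68, 0.26 and 0.29, and Csf2, which encodes GM-CSF, 0.84, -0.04 and 1.77.

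Likeness of pattern was described by Pearson's r of log2 level over the 6 arrays, among 2023 genes above background on at least 3 arrays and spanning at least 2-fold. The 6 points are arrays of 1 slide and share their scaling, so these values are descriptions. For Il5 and Il33, the WT HRF array (-0.91 and 4.61) stood above all others, which spanned -5.68 to -4.59 and 2.79 to 3.44. An r with either gene thus rests largely on that 1 array. Between members, r was 0.98 for Il5 with Il33, 0.97 for Il4 with Il1rl1, 0.95 for Il13 with Il33, 0.94 for Il5 with Il13 and 0.87 for Il4 with Il5. Il25 had no r above 0.79 with another member, and that was with Tslp, which spans 0.29. The genes most like Il5 were Cd209c (0.999), a lectin, and the interferon-inducible GTPase genes Irgm1 and Gbp6 (0.998 each). For Il13 they were Pdcd1lg2 (0.992), which encodes the PD-1 ligand PD-L2, and the potassium channel genes Kcnj15 (0.989) and Kcne3 (0.986). For Il33 they were Slc13a2 (0.996), Ccr4 (0.995) and Irgm1 (0.993), and for Il4 S100a4 (0.992), Chl1 (0.990) and Rimkla (0.988). Il1rl1 was most like Gapt (0.975) and the goblet cell genes Fcgbp (0.972) and Clca1 (0.968), which are high on the WT HRF and FcRg KO HRF arrays as Il1rl1 is. The genes nearest Il4ra were Il1f9 (0.987), Sbno2 (0.980) and Mrgpra2b (0.976), and those nearest Il13ra2 were Ifi209 (0.966), Kbtbd8 (0.934) and Tmem252 (0.928). For Il25 the nearest were Olfr1052 (0.997), Pou3f2 (0.995) and Defa-ps1 (0.992), and for Tslp Gpr15 (0.994), Gbp4 (0.986) and Il3 (0.980).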

How the data were processed

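Cy3-labelled total RNA was hybridised to 6 single-colour arrays, per the labels. The deposited spot intensity files came from Agilent Feature Extraction 10.7.3.1, and the authors' processed signal is an intensity with background subtracted and no scaling between arrays, per the file headers. A deposited value table holds log2 values whose centring is not given in the sources used here. The ratios taken from it here are multiples of 0.1 on the log2 scale, so a call near 2-fold can turn on that step. The medians of its columns were 0.1 (WT PBS) and 0.0 (all others), and its HRF to PBS differences matched the scanner files in scale and direction (slopes 0.9996, 0.9982 and 0.9996, r 0.991 to 0.996 over 35433 probes).

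From these, outlier spots were left out, spots of 1 probe averaged, and each array scaled on its 75th percentile. Of 55681 probes, 32335 had a RefSeq accession, 26050 were named through it with the GRCm38.p6 gene table, and 29631 stayed unnamed. The array design was annotated on mm9, so no coordinates of probes are given. A gene took its brightest probe and was compared where that probe was well above background on 1 of the arrays compared. Where it was dim on the other array, the ratio is a bound, taken against the lowest signal above background there or the probe's own signal if that was higher. With 1 array a group no test within a label is possible, and 2-fold was used to count. Tests used limma 3.58.1 in R 4.3.3 with Benjamini-Hochberg adjustment over 17601 genes (genotype plus challenge, or with a WT by challenge term). Only the HRF effect of the fit without that term was tried on simulated data. Those data had independent noise and no difference between labels, so they do not check the other effects. Python 3.11.15, numpy 2.4.6, pandas 2.3.3 and matplotlib 3.10.9 were used. Named genes were all members, all partner chains and neighbours, the 3 largest WT ratios and the largest knockout-label ratio of each other list, and the 3 genes most like each member above background on 3 or more arrays. Beyond this rule, Arg1, Clca1, Muc5ac, Retnlb, Socs1, Ccl17, Ccl22, Muc5b, Cdh26, Postn and Gata3 were named after their values were seen. The members and lists were chosen with earlier results of these data known. Alternatives were normexp with quantile normalization (offset 50), the value table, median scaling, other filters and probe rules, and, chosen after seeing the data, keeping the outlier spots of Il4.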

Additional observations from a re-analysis of the deposited data

How the results depend on the processing

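Between 4 and 6 members were at least 2-fold higher in WT under the settings tried, the 4 with the strict filter, which leaves out Il13. No called ratio of a member changed direction. Il13 in WT ranged from 3.68 to 6.05 (log2), Il5 from 2.94 to 4.16, Il4 from 1.76 to 2.39, Il33 from 1.49 to 1.77 and Il4ra from 0.28, with its second probe, to 1.53. Under the FcRg KO label the count of members was 0 with normexp and quantile normalization, 2 without a filter and 0 with the strict filter, where Il13 could not be compared. Under the FceRIa KO label it was 1 with the value table and 1 without a filter, and Il9 ranged from -3.61 to -0.73. Of 27 member ratios, those that moved beyond their scanner error numbered 8 with normexp, 6 with median scaling, 3 with the value table, 3 with the mean of probes and 2 without a filter. Median scaling shifted the median of all genes in WT from -0.05 to 0.17, so each WT ratio was 0.22 higher there.

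Counts over all genes depended more on the setting. At least 2-fold higher in WT were 617 genes with median scaling, against 406, and at least 2-fold lower were 35 with normexp, 538 with the value table, 120 with median scaling, 920 without a filter and 186 with the strict filter, against 307. Under the FcRg KO label they were 25 with normexp, 226 with the value table and 483 without a filter, against 127, and 79, 299 and 508 were lower in the same order, against 195. Under the FceRIa KO label 114 genes were higher with normexp and 587 without a filter, against 242, and 16, 155, 306 and 34 were lower with normexp, the value table, no filter and the strict filter, against 75. The share of calls that were higher in WT was 56.9%, but 89.7% with normexp, 83.7% with median scaling and 67.1% with the strict filter, and 47.6% with the value table and 37.0% without a filter, where lower calls outnumbered higher ones. It was 39.4% and 24.0% with normexp under the FcRg KO label, and 76.3% and 87.7% under the FceRIa KO label, where it was 65.7% without a filter. Limma called 16 genes without a filter, 43 with normexp and 11 with the value table for the FcRg KO label, against 26, and 2 with normexp and 25 with median scaling for the FceRIa KO label, against 0. Among members, 267 of 268 alternative tests stayed on the same side of the threshold, and Il25 under the FceRIa KO label passed with median scaling (adjusted p = 0.042). Leaving out a pair of arrays of any label gave 0 genes for the mean HRF effect. The cause of these shifts was not tested. Of 28 calls on list genes, 5 lost 2-fold under a setting (Il1a in WT and, under the FceRIa KO label, Il1a, Csf2rb2, Ccl11 and Il17a), and Csf2 in WT passed it with median scaling. Signal near background limits Il9, Il13 on the PBS arrays and the FceRIa KO HRF array, Il25 on the FceRIa KO arrays and the dimmer probes of Il1rl1. No paired analysis was possible because each group has 1 array, so there are no replicate numbers to pair. The genotype term of the limma fit sets HRF against PBS within each label, and without it 0 genes were called for HRF as well, with 1006 at an unadjusted p under 0.05 against 1548.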
